A study of Mus musculus with 25 samples.

Results

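The collagen crosslinking and modifying enzymes described here are 10 genes chosen by name: the lysyl oxidases Lox, Loxl1, Loxl2, Loxl3 and Loxl4, the lysyl hydroxylases Plod1 and Plod2, the prolyl 4-hydroxylase alpha subunits P4ha1 and P4ha3, and Serpinh1, which encodes the collagen chaperone HSP47. They are 10 of 47729 genes listed in the bulk count table, and all 10 were among the 15773 genes with enough counts to be tested. The choice was made with earlier results of these data known. RNA was sequenced from Lin- lung cells, sorted as CD45-, CD31- and CD326- to remove leukocytes, endothelium and epithelium. All mice carried Col1a1-Cre-ERT2 and floxed Fas alleles (Fas fl/fl), so that tamoxifen deletes an exon of the death receptor gene Fas in cells with an active Col1a1 promoter. The 5 bulk groups held 4 libraries each. Naive mice received no bleomycin. Fas+/+ mice (WT in the deposited labels) received intratracheal bleomycin and then corn oil. Fas-/- mice (FasDel) received bleomycin and then tamoxifen. Both bleomycin groups were collected at 3 weeks and at 6 weeks. Genotype and tamoxifen therefore cannot be told apart. The methods of the study count individual animals as replicates, while the labels do not tie a library to a mouse, so p-values measure the spread between libraries. The single-cell set held 1 library per condition, each from 4 pooled mice.

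Fibrillar collagen is modified at each step of its assembly. In the endoplasmic reticulum, prolyl 4-hydroxylases convert proline to hydroxyproline, which stabilizes the triple helix, lysyl hydroxylases modify lysines in the helix and at its ends, and HSP47 binds the folded procollagen on its way to the Golgi. Outside the cell, the copper enzymes of the lysyl oxidase family oxidize lysine and hydroxylysine so that neighboring molecules crosslink, and in fibrotic lung these crosslinks stiffen the matrix and slow its removal. Lysyl oxidases act on elastin as well as on collagen.

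Bulk depth ranged from 11819700 to 25189096 counts per library (median, 20122870). Fas was not lower in the Fas-/- libraries when counted over the whole gene: the log2 difference was 0.11 (adjusted p = 0.91) at 3 weeks and 0.36 (adjusted p = 0.719) at 6 weeks, so these counts do not check the deletion of 1 exon. The sort left other cells behind. Levels are given as CPM, the count of a gene scaled to a common library size. Summed over 10 markers, endothelial-like RNA was 199 to 494 CPM in naive libraries, and 1 library of each bleomycin group stood above the rest of its group: replicate 1 of Fas+/+ at 3 weeks (9090 CPM), replicate 4 of Fas-/- at 3 weeks (8240 CPM), replicate 2 of Fas+/+ at 6 weeks (1790 CPM) and replicate 2 of Fas-/- at 6 weeks (2700 CPM). Profibrotic fibroblast-like markers had a median sum of 10700 CPM in naive mice, 36800 and 31900 CPM at 3 weeks in Fas+/+ and Fas-/- mice, and 12800 and 17300 CPM at 6 weeks. Among these markers Fn1 alone had a mean of 6082 CPM in naive and 16200 CPM in Fas-/- mice at 3 weeks, a large part of the sums. Red cell-like markers summed to 2980 to 9560 CPM in naive libraries and to at most 236 CPM in any bleomycin library. Their part in the comparisons with naive mice was not tested. In bulk RNA, fewer cells of a type and less RNA per cell cannot be told apart.

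At 3 weeks after bleomycin, the enzymes of the set moved in different directions. P4ha3 and Loxl2 rose and P4ha1 fell in Fas+/+ mice against naive mice, and the other 7 did not pass the test (edgeR quasi-likelihood test, Benjamini-Hochberg adjusted over all genes, threshold 0.05). These 3 of 10 stand beside 41.3% of all genes called in the same comparison, 22.1% higher and 19.2% lower. At 3 weeks P4ha3 rose and P4ha1 fell in Fas-/- mice too, which is 2 of 10 beside 32% of all genes, 17.2% higher and 14.8% lower. Both comparisons use the same 4 naive libraries. The median log2 fold change of the 10 genes was 0.29 in Fas+/+ and 0.197 in Fas-/- mice, against 0.0115 and 0.0196 over all genes tested. At 6 weeks none of the 10 passed the test against naive mice in either genotype, where 5.31% (Fas+/+) and 6.48% (Fas-/-) of all genes did. At an unadjusted p under 0.05 there were 0 in Fas+/+ mice and 2 in Fas-/- mice, Plod2 and P4ha3, and DESeq2 called none in either. The share of all genes at that unadjusted cut-off is not given. Plod2 and P4ha3 lay above every naive library in Fas-/- mice and were called without the libraries rich in endothelial-like markers (adjusted p = 0.00403 and 0.000992), beside 11.7% of all genes in that fit. The share of all genes lying apart from the naive libraries is not given, here or below. Such separation therefore only describes these genes.

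**Figure D1:**
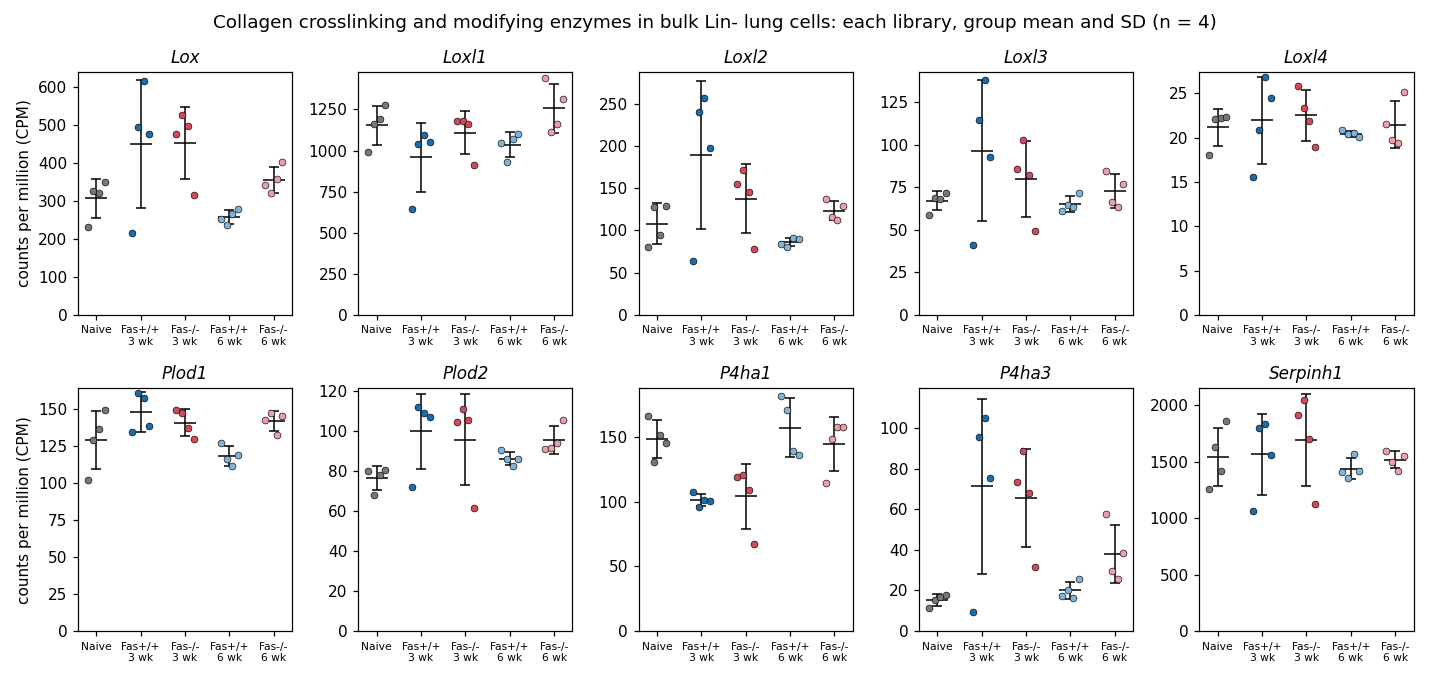
Each panel plots 1 gene in CPM (linear axis from 0), with a point for each of the 4 libraries of a group and a bar for the group mean ± SD. P4ha3 is the gene whose 3-week libraries lie farthest from the naive ones, 3 Fas+/+ libraries being between 75.3 and 105 CPM and the fourth at 9.52 CPM.

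**Figure D2:**
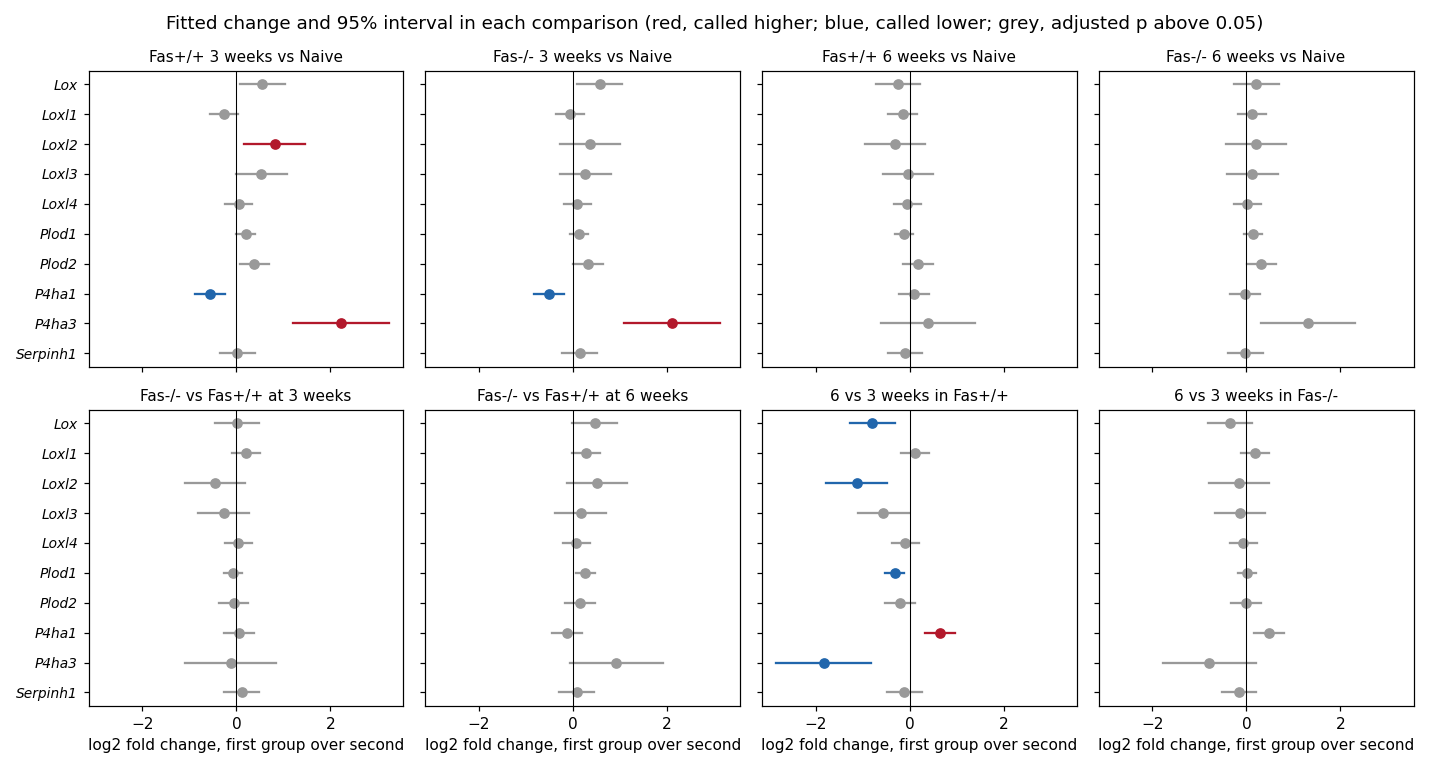
Points are the fitted log2 fold changes of the 10 genes in 8 comparisons, and lines are 95% intervals. Red and blue mark adjusted p of 0.05 or less, and the 6-week comparisons with naive mice and both genotype comparisons hold no colored point, nor does 6 against 3 weeks in Fas-/- mice.

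Per length, the 10 genes spanned a wide range of levels in naive lungs. In CPM divided by the exon length in kilobases (RPKM), Serpinh1 had the highest level at 630.6 ± 106 (SD, n = 4), followed by Loxl1 at 349.9 ± 36.3, Lox at 64.3 ± 10.7 and P4ha1 at 36.1 ± 3.55. Loxl2 (19.9 ± 4.52) and Plod1 (19.1 ± 2.94) differed by less than their spread, as did Loxl3 (14.6 ± 1.21) and Plod2 (14.2 ± 1.10), and Loxl4 (5.02 ± 0.501) and P4ha3 (4.87 ± 0.895). The genes also differed in how far they ranged over the 20 libraries. The highest CPM was 11 times the lowest for P4ha3, 4.06 times for Loxl2, 3.38 times for Loxl3 and 1.58 times for Plod1.

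Lox, the founding lysyl oxidase, was measured at 233, 326, 321 and 349 CPM in naive replicates 1 to 4. At 3 weeks the Fas+/+ libraries had 214, 496, 616 and 477 CPM, and the Fas-/- libraries 478, 526, 496 and 315 CPM. In each genotype 3 libraries lay above every naive library, and the library richest in endothelial-like markers lay inside or below the naive range. The log2 fold change was 0.55 ± 0.23 (SE; adjusted p = 0.0588) in Fas+/+ and 0.56 ± 0.23 (adjusted p = 0.0659) in Fas-/- mice, neither past the threshold with edgeR, while DESeq2 called both (adjusted p = 0.0382 and 0.0431). Without replicate 1 of Fas+/+ the first value was 0.78 (adjusted p = 0.000656), and without replicate 4 of Fas-/- the second was 0.69 (adjusted p = 0.0336). At 6 weeks Lox stood at 253, 236, 266 and 279 CPM in Fas+/+ and at 342, 320, 357 and 402 CPM in Fas-/- mice. Every Fas+/+ library at 6 weeks thus lay below every Fas-/- one, while neither group was called against naive mice (log2, -0.25 and 0.21; adjusted p = 0.605 and 0.66).

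Loxl2, a lysyl oxidase-like enzyme that crosslinks collagen IV as well as fibrillar collagen, had 79.8, 128, 94.7 and 129 CPM in naive libraries. The Fas+/+ libraries at 3 weeks had 63.2, 241, 256 and 197 CPM, so that replicate 1 was below all naive libraries and the other 3 were above them. The log2 fold change was 0.81 ± 0.31 (95% interval, 0.17 to 1.46; adjusted p = 0.0411). This call was lost on leaving out any one of 5 libraries, naive replicate 1 or 3 or Fas+/+ replicate 2, 3 or 4 (log2, 0.63 to 0.79; adjusted p = 0.0733 to 0.138), and without replicate 1 of Fas+/+ the value was 1.10 (adjusted p = 0.00035). The 4 Fas-/- libraries at 3 weeks had 155, 172, 145 and 78.2 CPM, and the log2 fold change was 0.35 ± 0.30 (adjusted p = 0.397). At 6 weeks Loxl2 was at 83.7, 80.6, 91.3 and 89.9 CPM in Fas+/+ and at 137, 116, 112 and 129 CPM in Fas-/- mice (log2 against naive, -0.32 and 0.19; adjusted p = 0.628 and 0.776). For the contrast of genotypes at 6 weeks, the study placed Loxl2 with the upregulated matrix transcripts of Fas-deficient cells. That result came from these same libraries, so the direction of this contrast here is not independent evidence. Neither edgeR nor DESeq2 called Loxl2 in this contrast here, where edgeR called 4 genes higher of 15773 tested. The study plotted Loxl2 with a t test for the single gene and stated no cut-off for its longer list of upregulated genes. The thresholds are therefore not alike.

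Loxl1, the lysyl oxidase tied to elastic fibers, was the most abundant of the family in every group. It made up 77.2% ± 1.29 of the summed RPKM of the 5 lysyl oxidases in naive lungs, 66.2% ± 5.56 in Fas+/+ and 70.4% ± 2.75 in Fas-/- lungs at 3 weeks, and 77.9% and 76.3% at 6 weeks. Its own level ranged from 989 to 1274 CPM without bleomycin, from 647 to 1092 CPM in Fas+/+ and from 912 to 1179 CPM in Fas-/- mice at 3 weeks (log2, -0.27 and -0.06; adjusted p = 0.142 and 0.79), and its log2 difference from naive at 6 weeks was -0.15 in Fas+/+ and 0.12 in Fas-/- mice (adjusted p = 0.613 and 0.682). With the endothelial-like markers as a covariate the negative Loxl1 values turned positive (0.13, 0.19 and 0.03). Lox took 14.1% ± 0.876 of the family in naive mice and 20.6% ± 2.80 in Fas+/+ mice at 3 weeks.

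Loxl3 and Loxl4 are the less abundant lysyl oxidase-like genes. Loxl3 had 59.0 to 71.9 CPM in naive libraries. The Fas+/+ libraries at 3 weeks had 40.9, 115, 138 and 92.8 CPM, and the Fas-/- libraries 86.0, 103, 82.5 and 49.1 CPM. As for Loxl2, 1 library per genotype lay below the naive range and the other 3 above it. The log2 fold change was 0.53 ± 0.26 (adjusted p = 0.111) in Fas+/+ and 0.26 ± 0.26 (adjusted p = 0.473) in Fas-/- mice, and without replicate 1 of Fas+/+ the first became 0.78 (adjusted p = 0.00211). At 6 weeks Loxl3 was at -0.04 and 0.12 on the log2 scale against naive (adjusted p = 0.958 and 0.845). Loxl4 stayed between 15.6 and 26.9 CPM over all 20 libraries, and its 4 log2 differences from naive were -0.05 to 0.09 (adjusted p = 0.656 to 0.962).

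Plod1 and Plod2 encode lysyl hydroxylases 1 and 2. Lysyl hydroxylase 2 acts on the ends of collagen chains, where its product sets the kind of crosslink formed. Plod2 had 80.0, 67.7, 78.2 and 80.2 CPM in naive libraries, 71.9, 112, 109 and 107 CPM in Fas+/+ and 104, 111, 105 and 61.7 CPM in Fas-/- libraries at 3 weeks. Again 3 libraries of each genotype lay above the naive range. Its log2 fold change was 0.38 ± 0.15 (adjusted p = 0.0502) in Fas+/+ and 0.32 ± 0.15 (adjusted p = 0.112) in Fas-/- mice. Without the endothelial-rich replicate these were 0.51 (adjusted p = 0.00577) and 0.47 (adjusted p = 0.00788). At 6 weeks all 4 libraries of each genotype lay above all naive libraries for Plod2, at 82.4 to 90.4 CPM in Fas+/+ and 91.1 to 106 CPM in Fas-/- mice, with log2 differences of 0.17 and 0.32 (adjusted p = 0.591 and 0.236; exact permutation p = 0.0286 each, the smallest that 4 against 4 libraries allow). Complete separation fixes that exact p, so it adds no further support. DESeq2 called Plod2 in Fas+/+ mice at 3 weeks (adjusted p = 0.0361). Plod1 had 102 to 149 CPM in naive mice and log2 differences of 0.20 and 0.13 at 3 weeks (adjusted p = 0.103 and 0.32) and -0.13 and 0.14 at 6 weeks (adjusted p = 0.512 and 0.438). Without naive replicate 4 the Fas+/+ value at 3 weeks was 0.27 (adjusted p = 0.0307). The third lysyl hydroxylase, Plod3, held 45.6% to 49.5% of the summed RPKM of the family in all 5 groups, and was higher in Fas+/+ mice at 3 weeks than in naive mice (log2, 0.25 ± 0.08; adjusted p = 0.0227).

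P4ha1 and P4ha3 moved apart. Each is an alternative alpha subunit of collagen prolyl 4-hydroxylase, holds its active site, and pairs with the beta subunit P4hb. P4ha3 had 11.3, 15.3, 16.8 and 17.7 CPM in naive libraries. At 3 weeks it had 9.52, 95.9, 105 and 75.3 CPM in Fas+/+ and 73.4, 88.6, 68.0 and 31.8 CPM in Fas-/- libraries. All 4 Fas-/- libraries and 3 of 4 Fas+/+ libraries lay above every naive library, and Fas+/+ replicate 1 lay below them. The fold change was 4.67 (log2, 2.22 ± 0.49; 95% interval, 1.20 to 3.25; adjusted p = 0.0017) in Fas+/+ and 4.29 (log2, 2.10 ± 0.49; 1.08 to 3.12; adjusted p = 0.00375) in Fas-/- mice. Both calls were kept whichever library was left out (highest adjusted p = 0.0082 and 0.0164). All 8 profibrotic fibroblast-like markers were measured, and their sum was also lowest at 3 weeks in Fas+/+ replicate 1 (8950 CPM, against 36050 to 42250 CPM in the other 3) and in Fas-/- replicate 4 (15760 CPM, against 31220 to 38480 CPM). Their part in the P4ha3 change was not tested.

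P4ha1 had 166, 131, 151 and 146 CPM in naive libraries. It had 107, 95.7, 101 and 100.3 CPM in Fas+/+ and 119, 121, 109 and 67.5 CPM in Fas-/- libraries at 3 weeks. All 8 libraries lay below every naive library. The log2 fold change was -0.56 ± 0.15 (adjusted p = 0.00764) and -0.51 ± 0.15 (adjusted p = 0.017), and both calls were kept whichever library was left out (highest adjusted p = 0.0231 and 0.0472). With the endothelial-like markers as a covariate, a fit chosen after the data were seen, they were -0.34 and -0.39 and not called (adjusted p = 0.251 and 0.0934), and fitting the Fas-/- and naive libraries by themselves gave -0.51 for Fas-/- mice, not called (adjusted p = 0.0571). Markers of other mesenchymal classes were lower at 3 weeks too. For 6 lipofibroblast-like markers the median sum was 6510 CPM without bleomycin and, at 3 weeks, 2840 (Fas+/+) and 4380 CPM (Fas-/-). In the same order it was 2630, 1160 and 1550 CPM for 6 pericyte-like markers and 672, 286 and 372 CPM for 6 mesothelial-like markers. Their part in the P4ha1 change was not tested. Replicate 1 of Fas+/+, the endothelial-rich library, had the highest P4ha1 level of its group, and replicate 4 of Fas-/- the lowest of its own.

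By 6 weeks P4ha1 was at 182, 171, 139 and 136 CPM in Fas+/+ and at 114, 149, 158 and 158 CPM in Fas-/- mice, overlapping the naive range (log2, 0.08 and -0.04; adjusted p = 0.825 and 0.927). P4ha3 was at 17.5, 20.5, 16.5 and 25.8 CPM in Fas+/+ mice, where 2 libraries lay above the naive ones and 2 within their range (log2, 0.39 ± 0.48; adjusted p = 0.718). In Fas-/- mice it was at 57.5, 29.6, 25.8 and 38.7 CPM, all above naive. The fold change was 2.48 (log2, 1.31 ± 0.48; 95% interval, 0.31 to 2.32; unadjusted p = 0.0134, adjusted p = 0.116), which did not pass the threshold. The exact permutation p was 0.0286, which complete separation from the naive libraries fixes.

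The make-up of the alpha subunits differed accordingly. P4ha3 held 10.4% ± 2.03 of the summed RPKM of P4ha1, P4ha2 and P4ha3 in naive libraries, 38.1% ± 20 in Fas+/+ and 39.0% ± 5.06 in Fas-/- libraries at 3 weeks, 12.7% ± 3.49 in Fas+/+ libraries at 6 weeks and 22.7% ± 9.24 in Fas-/- libraries at 6 weeks. P4ha1 held 76.5%, 48.0%, 48.9%, 74.6% and 65.6% in the same order. At 3 and at 6 weeks the P4ha3 share of every Fas-/- library lay above that of every naive library. This separation fixes the exact permutation p at 0.0286 each, so that p adds no support. In Fas+/+ mice the exact permutation p was 0.114 and 0.4 against naive, replicate 1 at 3 weeks having 8.53%. Between genotypes the exact permutation p of the P4ha3 share was 0.971 at 3 weeks and 0.0571 at 6 weeks. None of these p-values has a multiple-test correction. These shares were chosen after the values of the 2 genes were seen. P4ha2, the third alpha subunit, was called in no comparison, and its share stayed between 11.7% and 13.9% as a group mean. P4hb was higher in Fas+/+ mice at 3 weeks (log2, 0.39 ± 0.14; adjusted p = 0.0266) and at 0.35 (adjusted p = 0.0536) in Fas-/- mice.

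**Figure D3:**
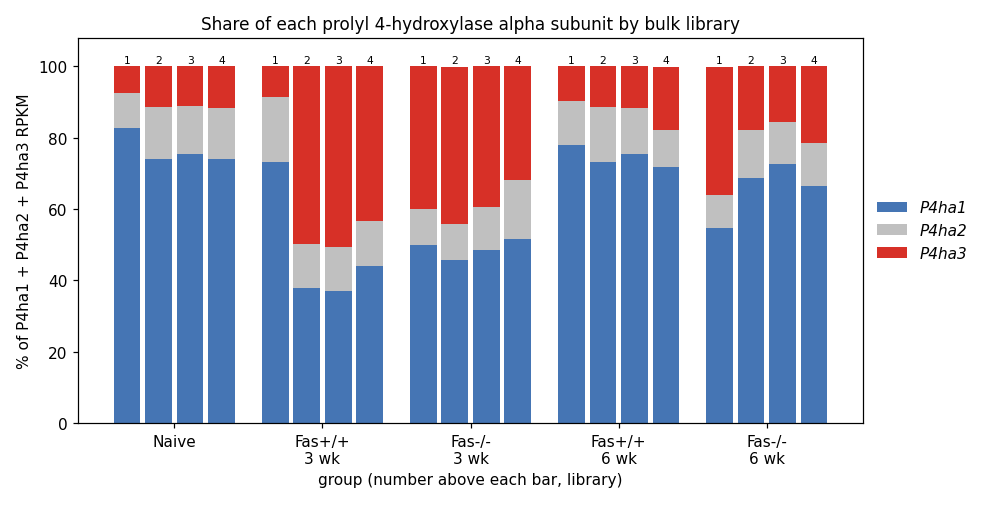
Stacked bars give the percent of the summed RPKM of 3 alpha subunits held by each, 1 bar per bulk library with its replicate number above it. The P4ha3 part is between 32% and 50.5% in 7 of 8 libraries at 3 weeks, 8.53% in the eighth, and 7.40% to 11.8% in naive libraries.

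The promoters of 3 genes are shown because 2 subunits of the same enzyme moved in opposite directions and because HSP47, the most abundant gene of the set, was called in no comparison. RefSeq starts were matched for 5 of the 10 genes (Loxl4, Plod1, P4ha1, P4ha3 and Serpinh1). The 250 bases before the first listed start were searched on both strands for ACGTG, the core of hypoxia response elements, for the AP-1 site TGANTCA, for the Smad palindrome GTCTAGAC, for the heat shock pair GAANNTTC, for the CCAAT box, for the TATA box as TATAAA and for the GC box GGGCGG. Build GRCm38.p6, 5′ to 3′ on the gene's strand, with capitals for matches to these letters on either strand:
P4ha3, chr7:100285270-100285519, plus strand: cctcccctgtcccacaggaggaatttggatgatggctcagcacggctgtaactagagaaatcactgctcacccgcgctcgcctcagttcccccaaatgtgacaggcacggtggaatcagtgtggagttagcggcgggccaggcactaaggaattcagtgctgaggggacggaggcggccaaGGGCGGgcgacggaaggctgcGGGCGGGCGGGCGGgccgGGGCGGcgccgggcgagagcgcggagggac
P4ha1, chr10:59323046-59323295, plus strand: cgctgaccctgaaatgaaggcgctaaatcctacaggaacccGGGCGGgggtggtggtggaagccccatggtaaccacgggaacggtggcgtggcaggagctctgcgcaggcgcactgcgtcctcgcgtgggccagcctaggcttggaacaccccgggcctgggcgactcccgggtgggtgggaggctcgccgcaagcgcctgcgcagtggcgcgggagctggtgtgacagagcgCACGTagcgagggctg
Serpinh1, chr7:99353240-99353489, minus strand: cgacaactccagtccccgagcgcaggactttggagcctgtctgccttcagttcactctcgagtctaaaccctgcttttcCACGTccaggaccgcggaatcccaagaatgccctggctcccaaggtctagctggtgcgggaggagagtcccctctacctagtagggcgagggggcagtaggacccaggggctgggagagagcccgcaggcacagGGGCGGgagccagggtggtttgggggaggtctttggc

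The P4ha3 promoter held 5 GGGCGG matches, of which 3 overlap as a repeat, starting 69, 48, 44, 40 and 30 bases before the start, and none of the other motifs. At least 1 GGGCGG occurs in 32.9% of 27025 RefSeq promoter windows of this length, and the share of windows with 5 is not given. Loxl4 held 3 GGGCGG and Plod1 held 2, along with 1 TATAAA, so all 5 promoters searched held GGGCGG. P4ha1 and Serpinh1 each held 1 ACGTG, a match found in 16.6% of windows, at 16 and 171 bases before the start, and 1 GGGCGG. These matches describe letters and not bound sites.

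Serpinh1 had 1260 to 1859 CPM in naive mice. At 3 weeks it had 1061, 1799, 1838 and 1556 CPM in Fas+/+ and 1910, 2042, 1699 and 1122 CPM in Fas-/- libraries, the lowest value of each being the endothelial-rich library. Its log2 differences from naive were 0.02 and 0.14 at 3 weeks (adjusted p = 0.937 and 0.589) and -0.10 and -0.02 at 6 weeks (adjusted p = 0.816 and 0.964). The 95% interval of the Fas+/+ difference at 3 weeks was -0.35 to 0.39, so a moderate change in either direction was not excluded by these libraries.

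At 3 weeks the library richest in endothelial-like markers had the lowest CPM of its group for 9 of the 10 genes in Fas+/+ mice, P4ha1 being the exception, and for 10 of 10 in Fas-/- mice. Each comparison was also run without the library richest in those markers in each of the 4 bleomycin groups, an alternative chosen after the data were seen. At 3 weeks 6 of the 10 were then called against naive mice in each genotype: Lox, Loxl2, Loxl3, Plod2 and P4ha3 higher and P4ha1 lower. The background was 50.4% of all genes in Fas+/+ mice (26.1% higher, 24.3% lower) and 39% in Fas-/- mice (20.3% higher, 18.8% lower). P4ha3 stood at 2.59 (adjusted p = 2.93e-07) and 2.32 (adjusted p = 2.43e-06), Loxl2 at 1.10 and 0.54 (adjusted p = 1.03e-05 and 0.00724), Lox at 0.78 and 0.69 (adjusted p = 4.95e-05 and 0.000312), and P4ha1 at -0.59 and -0.36 (adjusted p = 0.000658 and 0.0233). In Fas-/- mice at 6 weeks P4ha3 (1.41, adjusted p = 0.000992) and Plod2 (0.33, adjusted p = 0.00403) were then called, 2 of 10 beside 11.7% of all genes. The 3-week libraries left out were also the lowest of their groups in profibrotic fibroblast-like markers. Leaving out the lowest libraries widens a rise whatever made them low. The part that endothelial RNA has in the smaller changes with all libraries was therefore not tested.

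Between genotypes, none of the 10 passed the test at 3 or at 6 weeks, where edgeR called 0.171% and 0.0507% of all genes (27 and 8 of 15773) and DESeq2 also called none of the 10. At 3 weeks Loxl2 had the widest log2 difference of the 10, -0.46 ± 0.31 in Fas-/- against Fas+/+ mice (adjusted p = 0.737), and Lox the smallest of all 10, 0.01 ± 0.23 (adjusted p = 0.995). Without the endothelial-rich libraries Loxl2 was -0.56 (adjusted p = 0.0325) and was called, 1 of 10 beside 8.13% of all genes. The groups kept in that fit still differed in endothelial-like markers, at 2342 to 3138 CPM in Fas+/+ and 653 to 1096 CPM in Fas-/- libraries. The part of this RNA in the Loxl2 difference was not tested. No unadjusted p at 3 weeks with all libraries was under 0.05.

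At 6 weeks 9 of the 10 genes had a positive log2 difference, Fas-/- minus Fas+/+, beside 7834 of 15773 genes tested. The median of the 10 was 0.212 against -0.00114 over all genes. The 10 genes were chosen with earlier results of these data known and were counted in the same libraries, so these counts do not test the set. For 5 genes every Fas-/- library lay above every Fas+/+ library, beside 3.47% of all genes. These were Loxl2 (0.51 ± 0.31; 95% interval, -0.13 to 1.16; adjusted p = 0.774), Lox (0.46 ± 0.23; adjusted p = 0.644), Loxl1 (0.28 ± 0.14; adjusted p = 0.679), Plod1 (0.26 ± 0.09; 0.07 to 0.46; adjusted p = 0.386) and Plod2 (0.15 ± 0.15; adjusted p = 0.946). Each had an exact permutation p of 0.0286, the smallest possible. Such complete separation fixes that p, so it restates the separation and adds no support. Loxl1 was at 1044, 928, 1071 and 1102 CPM in Fas+/+ and at 1439, 1115, 1160 and 1316 CPM in Fas-/- libraries, and Plod1 at 127, 116, 111 and 119 against 143, 148, 132 and 146 CPM. P4ha3 had the widest difference and the widest interval, 0.92 ± 0.47 (-0.08 to 1.91; adjusted p = 0.685), with 1 Fas+/+ library (25.8 CPM) reaching the lowest Fas-/- one. Loxl3 (0.16), Loxl4 (0.07), Serpinh1 (0.08) and P4ha1 (-0.12) completed the set (adjusted p = 0.965 to 0.992). Plod1 was the single one of the 10 with an unadjusted p under 0.05 (0.0121), a cut-off for which no share of all genes is given.

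The 6-week groups also differed in other respects. Sums of 3 other marker lists did not overlap between the genotypes: 10 epithelial-like markers summed to 588 to 1630 CPM in Fas+/+ and 152 to 446 CPM in Fas-/- libraries, 8 immune-like markers to 27.4 to 180 and 12.1 to 22.3 CPM, and 5 red cell-like markers to 88.8 to 236 and 21.3 to 62.1 CPM. Profibrotic fibroblast-like markers summed to 11000 to 16200 and 15300 to 22200 CPM. The part of these cells in the 6-week differences was not tested. Endothelial-like markers summed to 507 to 1790 CPM in Fas+/+ and 139 to 2700 CPM in Fas-/- libraries. Ddx3y, a Y-linked gene, had 2.09, 0.0845, 0.0996 and 48.3 CPM in Fas+/+ and 55.5, 7.17, 0.560 and 51.5 CPM in Fas-/- libraries. Xist, an X-linked gene high in female cells, had 669, 638, 723 and 120 CPM and 2.51, 580, 655 and 142 CPM in the same order. At 3 weeks Fas-/- replicates 1 and 3 had both Ddx3y (35.2 and 37.3 CPM) and Xist (271 and 309 CPM). RNA of both sexes thus went into each group, and into some single libraries. The endothelial-rich replicate 1 of Fas+/+ at 3 weeks was also the single library of its group with a low Ddx3y value (0.0494 against 50.4 to 60.0 CPM). With Ddx3y as a covariate Loxl3, Loxl4 and Serpinh1 changed sign (-0.06, -0.05 and -0.06), and they also did with the endothelial-like markers as a covariate (-0.01, -0.01 and -0.02). The other 7 kept their direction in both fits.

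From 3 to 6 weeks in Fas+/+ mice, Lox, Loxl2, Plod1 and P4ha3 fell and P4ha1 rose, 5 of 10 beside 22.9% of all genes, 12% higher and 10.9% lower. The log2 change was -1.83 ± 0.48 for P4ha3 (adjusted p = 0.0109), -1.13 ± 0.31 for Loxl2 (adjusted p = 0.0134), -0.80 ± 0.23 for Lox (adjusted p = 0.0169), -0.32 ± 0.09 for Plod1 (adjusted p = 0.0202) and 0.64 ± 0.15 for P4ha1 (adjusted p = 0.00622). P4ha1 and P4ha3 kept their calls whichever library was left out. When the 2 groups were fitted by themselves, P4ha1 and Plod1 were called, and P4ha3 (-1.83; adjusted p = 0.0589), Loxl2 (-1.13; adjusted p = 0.0583) and Lox (-0.81; adjusted p = 0.0688) were not. With Ddx3y as a covariate, the Y-linked gene that was high in 3 of 4 Fas+/+ libraries at 3 weeks and in 1 of 4 at 6 weeks, P4ha1 alone was called (0.56; adjusted p = 0.0189), and P4ha3 was at -1.09 (adjusted p = 0.0911), Loxl2 at -0.71 (adjusted p = 0.0837), Lox at -0.52 (adjusted p = 0.0762) and Plod1 at -0.24 (adjusted p = 0.051). Without the 4 endothelial-rich libraries 7 were called, Loxl3 (-0.81; adjusted p = 0.000246) and Plod2 (-0.34; adjusted p = 0.00165) being added to the 5, beside 37% of all genes. Plod1 lost its call without Fas+/+ replicate 2 or 3 at 3 weeks or replicate 2, 3 or 4 at 6 weeks (log2, -0.28 to -0.31; adjusted p = 0.063 to 0.0853). Lox lost it without replicate 3 at 3 weeks or replicate 2 at 6 weeks (-0.61 and -0.75; adjusted p = 0.0741 and 0.053), and Loxl2 without replicate 3 at 3 weeks (-0.95; adjusted p = 0.0535). Loxl3 was called without replicate 1 at 3 weeks (-0.82; adjusted p = 0.00219).

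In Fas-/- mice edgeR called no gene of the set between 3 and 6 weeks, beside 9.02% of all genes. At an unadjusted p under 0.05, for which no share of all genes is given, there was 1, P4ha1. P4ha1 was the nearest at 0.47 ± 0.15 (adjusted p = 0.0602) and was called without replicate 1 at 6 weeks (0.57; adjusted p = 0.0395) and by DESeq2 (adjusted p = 0.0319). P4ha3 was at -0.79 ± 0.47 (adjusted p = 0.3) and Lox at -0.35 ± 0.23 (adjusted p = 0.341). Without the 4 endothelial-rich libraries both were called lower, P4ha3 at -0.91 (adjusted p = 0.0171) and Lox at -0.44 (adjusted p = 0.0281), 2 of 10 beside 16.7% of all genes. That a change passed in Fas+/+ and not in Fas-/- mice does not show that the genotypes differ in it. The difference itself, the genotype by time term, was called for none of the 10 and for 0.00634% of all genes. It was 0.97 ± 0.43 for Loxl2 (unadjusted p = 0.0369, adjusted p = 0.617), 0.33 ± 0.13 for Plod1 (unadjusted p = 0.0224, adjusted p = 0.535) and 1.04 ± 0.66 for P4ha3 (adjusted p = 0.79). Without replicate 1 of Fas+/+ at 3 weeks the Loxl2 term was 1.27 (adjusted p = 0.0399), and without all 4 endothelial-rich libraries it was 1.07 (adjusted p = 0.028), 1 of 10 beside 1.58% of all genes. DESeq2 called none.

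Of 37 other genes of collagen folding, hydroxylation, processing and crosslinking, 36 were tested. In Fas+/+ mice at 3 weeks 12 rose and 8 fell against naive mice, beside 22.1% and 19.2% of all genes, and in Fas-/- mice 7 rose and 4 fell, beside 17.2% and 14.8%. The risers were led by Pxdn, the peroxidase that crosslinks collagen IV (log2, 1.57 ± 0.15 in Fas+/+ and 1.19 ± 0.15 in Fas-/- mice; adjusted p = 1.32e-06 and 3.47e-05). Tgm1, a transglutaminase, rose by 1.73 and 1.78 (adjusted p = 0.0016 and 0.00196) from 2.80 CPM in naive mice. Atox1, which carries copper, rose in Fas+/+ mice (0.71; adjusted p = 0.0015), and Fn1, the fibronectin gene, in Fas-/- mice (1.41; adjusted p = 0.00498). Each was named for its small p there, and its test in the other genotype is not given. Among the genes that fell, the 3 of smallest p were the same in both genotypes. They were Pcolce2, an enhancer of procollagen cleavage (-1.79 and -1.38; adjusted p = 1.27e-05 and 0.000229), Fbln5, which brings Loxl1 to elastic fibers (-0.94 and -0.62; adjusted p = 0.000109 and 0.00404), and Atp7a, the copper pump that loads lysyl oxidases (-0.49 and -0.52; adjusted p = 0.00184 and 0.002).

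At 6 weeks Atp7a remained below naive in both genotypes (-0.45 and -0.56; adjusted p = 0.02 and 0.00577), and Pcolce2 in Fas-/- mice (-0.74; adjusted p = 0.0489). Between 3 and 6 weeks 5 of the 36 rose and 7 fell in Fas+/+ mice, beside 12% and 10.9% of all genes. Pcolce2 (1.23; adjusted p = 0.000877), Fbln5 (0.78; adjusted p = 0.00132) and the prolyl 3-hydroxylase P3h2 (0.74; adjusted p = 0.0205) were called higher, and Pxdn (-1.40; adjusted p = 5.26e-05), the galactosyltransferase Colgalt1 (-0.42; adjusted p = 0.00704) and the procollagen proteinase Adamts14 (-1.28; adjusted p = 0.00761) lower. In Fas-/- mice 0 rose and 2 fell, beside 9.02% of all genes called, Pxdn (-0.90; adjusted p = 0.00263) and Tgm1 (-1.33; adjusted p = 0.033). None of the 36 was called between genotypes. Their median log2 fold change was 0.0301 and 0.0732 at 3 weeks, near the 0.0115 and 0.0196 of all genes.

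The substrates of these enzymes are the fibrillar collagens and elastin. Of 11 fibrillar collagen genes and elastin, 7 rose and 0 fell in Fas+/+ mice at 3 weeks and 6 rose and 0 fell in Fas-/- mice, where 22.1% and 17.2% of all genes rose, with median log2 fold changes of 0.879 and 0.887. Col11a1, at 0.630 CPM without bleomycin, reached 28.3 and 16.6 CPM (log2, 5.46 and 4.69; adjusted p = 0.000156 and 0.000781), and Col24a1 went from 2.88 to 31 and 33.4 CPM (log2, 3.42 and 3.53; adjusted p = 0.000113 and 0.000165). Both were still above naive in Fas-/- mice at 6 weeks (4.85 and 2.88; adjusted p = 0.00328 and 0.00374).

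Over the 20 bulk libraries, the genes with the highest Pearson r to P4ha3 on the log2 CPM scale were Mmp14 (0.984), Col5a2 (0.982) and Fn1 (0.977). For Lox they were Col5a1 (0.961), Col1a1 (0.957) and Fbn1 (0.954), and for Loxl2 Fstl1 (0.971), Col1a2 (0.967) and Col1a1 (0.963). P4ha1 had S100a7a (0.922), Fkbp4 (0.919) and Npc1 (0.918) nearest. The nearest genes were Rab34, Ltbp3 and Setbp1 for Loxl1 (0.932 to 0.937), Oaf, Cd63 and Calu for Loxl3 (0.961 to 0.965), and Ror2, Fzd1 and Cebpa for Plod2 (0.896 to 0.909). They were Acan, Lgals12 and Eln for Plod1 (0.816 to 0.901), Mtmr11, Tmed3 and Fam20c for Loxl4 (0.869 to 0.881), and Tmed3, Fam20c and Arl1 for Serpinh1 (0.904 to 0.919). The points share the same libraries and group differences, so these values describe likeness of pattern and nothing more.

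The single-cell libraries held 13900 barcodes, of which 12059 had 200 to 7500 genes and at most 20% mitochondrial UMIs (unique molecular identifiers, which count captured RNA molecules) and were kept. A median of 5768 to 8896 UMIs was read per kept cell. Before any result, 2 features of these libraries need stating. First, libraries shared barcodes: 350 of the 603 kept naive barcodes (58%) also occurred in another library, and 174, 384, 197 and 435 kept barcodes of the other 4 libraries did. In shared pairs the naive copy held far more UMIs, a median of 9537.5 against 912 for the 286 barcodes shared with the Fas-/- library labelled 6 weeks. Leaving out the copy with fewer UMIs moved none of 50 values (10 genes in 5 libraries) beyond its counting interval, with ratios from 0.987 to 1.01. Leaving out every shared barcode moved 10 of 50, with ratios from 0 to 1.46.

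Second, the time labels ran against the bulk libraries. Single-cell UMIs were summed over the mesenchymal clusters for this, and genes with few UMIs there were left out. Bulk Fas+/+ libraries had 1725 genes called lower and 1890 called higher at 6 than at 3 weeks. Of the 1598 called lower that were kept, 1496 (93.6%) were higher in the single-cell library labelled 6 weeks than in that labelled 3 weeks. Of the 1771 called higher that were kept, 202 (11.4%) were. For Fas-/- mice the same held for 611 of 640 (95.5%) and 50 of 682 (7.33%). Over all genes tested in bulk and kept in the same way, 51.7% and 48.5% were higher in the library labelled 6 weeks. Of the 10 enzymes 8 ran opposite in each genotype, P4ha3 being -1.83 in bulk and 1.99 in single cells in Fas+/+ mice, and Lox -0.80 and 1.06. The single-cell libraries are therefore named by their labels, no direction over time is drawn from them, and the cause was not tested.

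**Figure D4:**
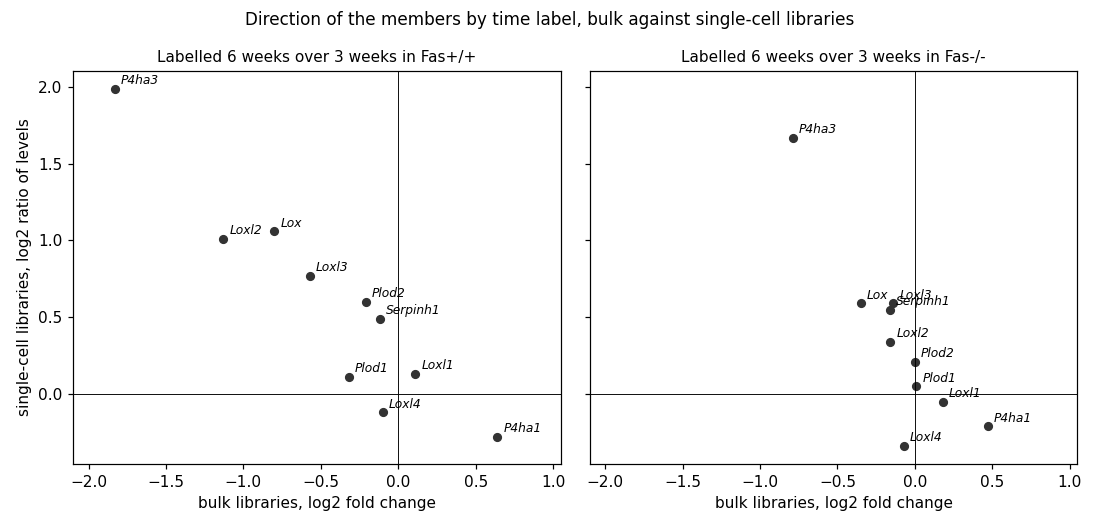
Each point is 1 of the 10 genes, with its bulk log2 fold change of 6 over 3 weeks on the x axis and the log2 ratio of its mesenchymal single-cell levels between libraries with the same labels on the y axis. P4ha3, Lox, Loxl2 and Loxl3 lie in the upper left corner in both genotypes, which is lower at 6 weeks in bulk and higher in the library labelled 6 weeks.

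Cells were clustered without the genes described here, and clusters were named from fixed markers. A cluster with none of its own markers among its 10 leading genes was kept apart and is given by its leading gene. With 1 library per condition there is no test, and intervals cover counting error only. P4ha3 was confined neither to one class nor spread evenly. It was at 2.18 UMIs per 10,000 (95% exact Poisson interval, 2.05 to 2.31) in airway smooth muscle or ductal myofibroblast-like cells and at 1.12 (1.08 to 1.17) in profibrotic fibroblast-like cells. Adventitial fibroblast-like cells had 0.195, vascular smooth muscle-like cells 0.0359, lipofibroblast-like cells 0.0189 (28 UMIs in 1473 cells), pericyte-like cells 0.0161 and endothelial-like cells 0.0102 (2 UMIs). The clusters kept apart that had lipofibroblast-like as their best marker list gave 0.210 (led by Saa3), 0.141 (led by Clec11a) and 0.123 (led by Gm26870). Red cell-like barcodes gave 0.0914 (0.055 to 0.143) for P4ha3. The 4 lower values lay below that, and the intervals of the clusters led by Clec11a and Gm26870 overlap it. These barcodes are a rough guide to free RNA and not a measure of it. Igkc, Jchain and Lyz2 were among their 10 leading genes, so they were not red cells alone. Their median was 1625 UMIs, against 7225 in the ductal and 9455 in the lipofibroblast-like cluster. The same barcodes gave 0.818 for Lox, 2.12 for Loxl1, 0.486 for Loxl2, 0.0673 for Loxl3, 0.0337 for Loxl4, 0.255 for Plod1, 0.572 for Plod2, 0.587 for P4ha1 and 7.70 for Serpinh1. A level of a gene at or below its value there is not read as expression.

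P4ha3 therefore differed from P4ha1 in where it was counted. Of the UMIs of the 3 alpha subunits, P4ha3 took 75.2% (exact binomial interval, 72.9% to 77.5%) in airway smooth muscle or ductal myofibroblast-like cells, 48.8% (47.3% to 50.3%) in profibrotic fibroblast-like cells, 12.7% in adventitial fibroblast-like cells and 1.66% (1.10% to 2.39%) in lipofibroblast-like cells. In the clusters kept apart with lipofibroblast-like as their best list it was 21.7% (led by Saa3), 13.5% (led by Clec11a) and 11.3% (led by Gm26870). P4ha1 was at 0.506 to 1.09 UMIs per 10,000 in the 4 named classes and in pericyte-like cells, the lowest value, in the ductal class, being below the 0.587 of red cell-like barcodes, and at 2.27 in epithelial-like cells that escaped the sort. By library, P4ha3 in the ductal class was 1.57 in naive cells, 1.62 and 1.29 in the Fas+/+ and Fas-/- libraries labelled 3 weeks, and 2.62 and 2.67 in those labelled 6 weeks. In the profibrotic class it was 0.410 and 0.454 in the libraries labelled 3 weeks and 1.28 and 1.27 in those labelled 6 weeks. Just 11 naive cells fell in that class, and their value is not given.

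**Figure D5:**
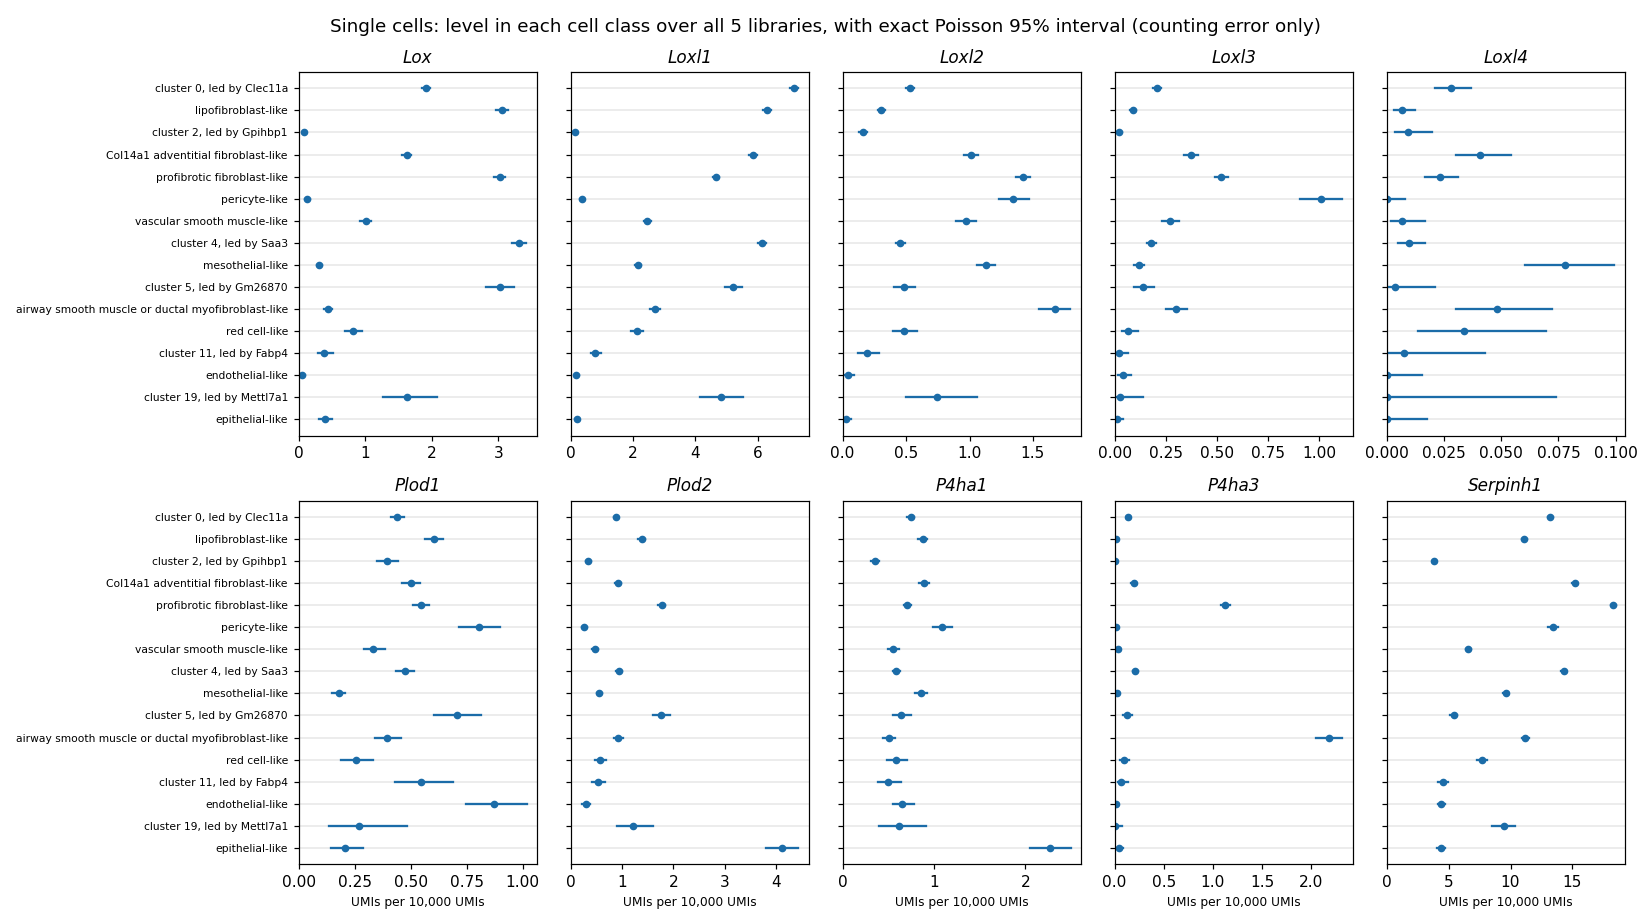
Panels give UMIs per 10,000 UMIs of each gene by cell class over all 5 libraries, with exact Poisson 95% intervals and classes of 100 or more cells ordered by cell number. P4ha3 stands out in 2 classes at 2.18 and 1.12, while Serpinh1 ranges from 3.85 to 18.3, with red cell-like barcodes at 7.70.

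The lysyl oxidases divided the mesenchyme when all libraries were pooled. In the profibrotic class 6679778 and 8570505 of 18638188 UMIs came from the Fas+/+ and Fas-/- libraries labelled 6 weeks. Its pooled levels, here and in the next paragraph, therefore lean on those libraries, and the order of classes within a library is not given. Lox was at 3.05 UMIs per 10,000 (2.96 to 3.14) in lipofibroblast-like cells, 3.02 (2.94 to 3.10) in profibrotic fibroblast-like cells and 3.31 (3.21 to 3.41) in the cluster led by Saa3, which held all 6 lipofibroblast-like markers above other cells. Ductal (0.437) and pericyte-like cells (0.129) were below the 0.818 of red cell-like barcodes. Loxl1 was highest among the named classes in lipofibroblast-like cells (6.28) and, at 0.366 in pericyte-like cells, was below the 2.12 of red cell-like barcodes. The study listed Loxl1 among matrix genes higher in Fas-deficient than in Fas-sufficient lipofibroblasts at 6 weeks, in these samples. The pooled level here does not compare genotypes and does not bear on that. Loxl2 had another order: 1.67 in ductal, 1.42 in profibrotic, 1.34 in pericyte-like, and 1.13 in mesothelial-like cells, with lipofibroblast-like cells (0.303) below the 0.486 of red cell-like barcodes. Loxl3 was at 1.01 (0.907 to 1.11) in pericyte-like and 0.522 in profibrotic fibroblast-like cells. Loxl4 was rare everywhere, at most 0.0779 (66 UMIs) in mesothelial-like cells.

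Plod2 was at 1.77 in profibrotic and 1.38 in lipofibroblast-like cells and at 4.11 in epithelial-like cells, while pericyte-like cells (0.269) were below the 0.572 of red cell-like barcodes. Plod1 had 0.334 to 0.805 in the named mesenchymal classes, 0.178 in mesothelial-like cells, below the 0.255 of red cell-like barcodes, and 1.99 in lymphatic endothelial-like cells (148 UMIs in 94 cells). Serpinh1 was at 18.3 in profibrotic, 15.2 in adventitial, 13.4 in pericyte-like and 4.42 in endothelial-like cells, the last below the 7.70 of red cell-like barcodes.

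The profibrotic class joined 2 clusters, led by Thbs4 and by Spp1, in different proportions by library. The Spp1 cluster held 22.2% and 30.3% of the class in the Fas+/+ and Fas-/- libraries labelled 3 weeks and 41.7% and 38.9% in those labelled 6 weeks. In the libraries labelled 6 weeks the genotype ratios, Fas-/- over Fas+/+, within the class were 0.563 (exact interval, 0.518 to 0.612) for Loxl2, 0.688 (0.651 to 0.728) for Lox, 0.763 (0.667 to 0.874) for Loxl3 and 0.819 (0.780 to 0.861) for Loxl1. P4ha3 was 0.991 (0.905 to 1.09), Serpinh1 1.03 (1.01 to 1.06) and P4ha1 1.17 (1.03 to 1.32). Within the Thbs4 cluster Loxl2 was 0.751 (0.668 to 0.844), Lox 0.751 (0.697 to 0.810) and Loxl3 0.994 (0.818 to 1.21), and within the Spp1 cluster Loxl2 was 0.415 (0.368 to 0.467), Lox 0.631 (0.580 to 0.686) and Loxl3 0.580 (0.479 to 0.702). Loxl2 and Lox were thus below 1 in both clusters, and Loxl3 in 1 of them.

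In the libraries labelled 3 weeks the ratios within the class were 1.34 (1.06 to 1.70) for Loxl2, 1.33 (1.12 to 1.57) for Lox, 1.37 (1.14 to 1.64) for Plod2 and 1.11 (0.789 to 1.56) for P4ha3. The Thbs4 cluster gave 1.52 (1.17 to 2.00) for Loxl2 and 1.45 (1.19 to 1.75) for Lox, and the smaller Spp1 cluster 0.827 (0.481 to 1.41) and 0.990 (0.688 to 1.42).

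The libraries labelled 6 weeks also differed in cells that the sort was meant to remove. Clusters with endothelial-like as their best marker list made up 35.5% of the Fas+/+ and 8.19% of the Fas-/- library labelled 6 weeks. Over all kept cells of these libraries the ratio was 1.11 (1.08 to 1.15) for Lox, 0.95 (0.904 to 0.999) for Loxl2 and 1.28 (1.20 to 1.37) for P4ha3. Over the mesenchymal clusters it was 0.897 (0.869 to 0.926) for Lox, 0.780 (0.741 to 0.821) for Loxl2 and 1.04 (0.967 to 1.11) for P4ha3, so Lox turned direction and the P4ha3 interval included 1. Likewise, the profibrotic class made up 11% of all kept Fas-/- cells and 7.41% of Fas+/+ cells labelled 6 weeks, but 13% and 13.5% of the mesenchymal ones. In the libraries labelled 3 weeks it made up 9.23% of Fas-/- and 5.35% of Fas+/+ mesenchymal cells. Since the time labels ran against the bulk libraries, the genotype ratios are not paired with bulk differences by time. All these ratios sum UMIs, so cells with more UMIs weigh more. In the libraries labelled 6 weeks the profibrotic class had medians of 27953 (Fas+/+) and 25298 UMIs (Fas-/-), against 7151 and 8675 over all kept cells.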

How the data were processed

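RNA was measured in 20 bulk libraries of sorted Lin- lung cells and in 5 single-cell libraries. The authors used skewer for trimming and Hisat2 for alignment (GRCm38), and deposited raw counts per gene from htseq-count (Ensembl annotation). The deposited normalized signal was those counts divided by DESeq2 size factors and was used only to check the counts. UMI counts per cell were deposited by the authors from Cell Ranger.

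Genes with a minimum count of 10 by filterByExpr were kept, and edgeR 4.0.16 (TMM, quasi-likelihood test, all 5 groups in one fit, R 4.3.3) tested 15773 genes with Benjamini-Hochberg adjustment at 0.05. DESeq2 1.42.0 was an alternative, with another scaling, no filter, a fit to the groups compared, a replicate block and each library left out. Fits with endothelial-like markers or Ddx3y as covariates or without endothelial-rich libraries were added after seeing the data, as were the single-cell ratios within single clusters. CPM used TMM library sizes, and RPKM used the union of exons (GENCODE vM21). In simulated data for Fas+/+ at 3 weeks against naive, 200 of 15553 genes were changed and no library was made to stand apart. There the fit recovered 88.2% of genes changed by 2 and 64.2% of those changed by 1 on the log2 scale, with 3.42% false calls. The real comparison called 41.3% of all genes and held an outlying library, so these rates do not carry over to it. Barcodes were kept between 200 and 7500 detected genes, with a mitochondrial share up to 20%, and clustered with Seurat 5.3.0 (20 components, resolution 0.8). No doublet caller was run beyond the upper gene limit. Bulk depth, 11819700 to 25189096 counts, limits the precision of low genes, and single-cell intervals cover counting error only.

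The 10 members and all gene lists were chosen with earlier results of these data known. All 10 were named against naive mice and between genotypes at 6 weeks, elsewhere those called or with the widest and narrowest change. Of the pathway and substrate lists up to 3 genes per direction with the smallest p were named, and for each member the 3 genes of highest correlation.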

Additional observations from a re-analysis of the deposited data

Results flagged for a closer look

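Of 50 sets of 4 libraries (10 genes in 5 groups), 7 held a library far from the other 3 by Dixon's ratio. Chance gives about 1 in 20 for independent sets, but these sets share the same libraries. The share over all genes is not given, so the count is not read as a trait of these genes. In Fas+/+ mice at 3 weeks replicate 1 stood low for Loxl1 (647 CPM), Plod2 (71.9 CPM) and P4ha3 (9.52 CPM). In Fas-/- mice at 3 weeks replicate 4 stood low for Loxl1 (912 CPM) and Plod2 (61.7 CPM). These are the 2 libraries with the highest endothelial-like marker sums, 9090 and 8240 CPM. Among naive libraries replicate 1 stood low for Loxl4 (18 CPM) and replicate 2 for Plod2 (67.7 CPM), with endothelial-like sums within the naive range of 199 to 494 CPM.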

How the results depend on the processing

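Over the bulk alternatives other than leaving out 1 library, 425 values kept their direction and side of the threshold, 27 newly passed it, 14 no longer did and 22 changed sign, each of a gene not called in that comparison. Fas+/+ against naive mice at 3 weeks gave 3 called genes of the 10, 5 with DESeq2, 5 with the endothelial covariate, 6 without endothelial-rich libraries and 2 to 6 on leaving out 1 library. Fas-/- at 3 weeks gave 2, then 3 with DESeq2, 3 with the endothelial covariate, 6 without endothelial-rich libraries and 2 to 4 leaving out 1. Fas-/- at 6 weeks gave 0, then 2 in a fit to those groups, 2 with the endothelial covariate and 2 without endothelial-rich libraries. Between genotypes at 3 weeks the count went from 0 to 1 and for the interaction from 0 to 1 without those libraries (0 to 1 leaving out 1). From 3 to 6 weeks Fas+/+ gave 5, then 2 in a fit to those groups, 1 with the Ddx3y covariate, 7 with the endothelial covariate, 7 without endothelial-rich libraries and 2 to 6 leaving out 1, and Fas-/- gave 0, then 1 with DESeq2, 2 without endothelial-rich libraries and 0 to 1 leaving out 1. The cause was not tested. The share of all genes called was given only for the main fit and the fit without endothelial-rich libraries. Under the other alternatives, here and elsewhere, the counts are not read as results about the 10 genes.

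With the replicate number as a block, 2 and 2 genes were called against naive mice at 3 weeks and 5 from 3 to 6 weeks in Fas+/+ mice, and Loxl2 at 3 weeks was 0.77 (adjusted p = 0.0642). No other call changed. Samples with the same number did not all deviate together. Per number the lowest correlation was -0.716 to -0.258, the median -0.197 to 0.264 and the highest 0.346 to 0.486. These values do not settle whether the numbers pair the samples.

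With the endothelial covariate the sign of the log2 difference changed for Loxl1 against naive (0.126 and 0.192 at 3 weeks, 0.0332 in Fas+/+ at 6 weeks), for Loxl3 (0.279), Loxl4 (0.0822) and Serpinh1 (0.0869) in Fas+/+ and P4ha1 (0.0175) and Serpinh1 (0.0658) in Fas-/- at 6 weeks, and between genotypes at 6 weeks for Loxl3 (-0.0142), Loxl4 (-0.0058) and Serpinh1 (-0.0211). With the Ddx3y covariate it did against naive for Loxl4 (-0.000728 and -0.0122 at 3 weeks, 0.0443 and -0.00988 at 6 weeks) and, in Fas+/+, Serpinh1 (-0.0299 at 3 weeks, 0.0118 at 6 weeks) and Loxl3 (0.12 at 6 weeks), and between genotypes at 6 weeks for Loxl3 (-0.0645), Loxl4 (-0.0542) and Serpinh1 (-0.0556). Without endothelial-rich libraries Loxl1 was 0.0124 in Fas-/- at 3 weeks. Leaving out 1 library, values against naive spanned 0 in Fas+/+ at 3 weeks for Loxl4 (-0.0609 to 0.177) and Serpinh1 (-0.0802 to 0.164), in Fas-/- at 3 weeks for Loxl1 (-0.145 to 0.0134) and Loxl4 (-0.000989 to 0.152), in Fas+/+ at 6 weeks for Serpinh1 (-0.192 to 0.00307), and in Fas-/- at 6 weeks for Loxl4 (-0.0655 to 0.0576), P4ha1 (-0.0929 to 0.0607) and Serpinh1 (-0.118 to 0.0804), and between genotypes at 6 weeks for Loxl4 (-0.0166 to 0.11).

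Of 50 single-cell values, 15 moved with no cell filter, 4 with at most 10% mitochondrial UMIs, 34 when thinned to 3000 UMIs, 10 without shared barcodes and 0 without the copies of fewer UMIs. Ratios to the main values ran from 0.293 to 1.5 when thinned and from 0 to 1.46 without shared barcodes.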
